A study of Prunus persica with 24 samples.

Results

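The genes of the anthocyanin pathway were followed in the flesh of harvested peach (Prunus persica) through a week of storage at 25 °C and at 35 °C. The set held 10 of the 26873 gene identifiers, chosen by name for their place in the pathway. It comprised the transcription factors MYB10.1 (Prupe.3G163100) and MYB10.3 (Prupe.3G163300), 7 enzyme genes and 1 transport gene. The enzyme genes were 2 for chalcone synthase (CHS, Prupe.1G002900 and Prupe.1G003000), and 1 each for chalcone isomerase (CHI, Prupe.2G225200), flavanone 3-hydroxylase (F3H, Prupe.7G168300), dihydroflavonol reductase (DFR, Prupe.1G376400), anthocyanidin synthase (ANS, Prupe.5G086700) and a flavonoid glucosyltransferase (UFGT, Prupe.2G324700). The transport gene encoded the anthocyanin glutathione transferase (GST, Prupe.3G013600). These names and roles come with the list, since the deposited tables hold identifiers without gene names.

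Fruit had first been held at 5 °C for 2 days and was then divided at random between 25 °C, the common storage temperature, and 35 °C, the high one. Flesh was sampled on days 1, 2, 3, 5, 6 and 7, and the labels list 24 libraries of total RNA freed of ribosomal RNA, 2 for each temperature and day. Cultivar, flesh colour and the number of fruit per library are not given in the labels, and all groups shared the cold period. Each temperature and day has 1 deposited value per gene, in FPKM (fragments mapped to a gene, divided by transcript length and by all mapped fragments), so that no value carries a replicate error.

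Anthocyanins are the red and purple pigments of fruit skin and flesh. Chalcone synthase makes the first flavonoid, which CHI and F3H carry on towards the dihydroflavonols. DFR and ANS turn these into coloured but unstable anthocyanidins, a glucosyltransferase stabilises them by adding a sugar, and a glutathione transferase helps to move the pigment into the vacuole. MYB10 proteins are R2R3 MYB transcription factors that switch these genes on in fruit of the rose family, and in peach they lie as a small cluster of neighbouring genes.

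Of the 10 identifiers, 9 had values above 0 and passed the filter of at least 1 FPKM in at least 2 columns, as did 15420 identifiers in all. MYB10.3 was listed at 0 in all 12 columns, as was Prupe.3G163200, the identifier numbered between the MYB10 genes. An exact 0 can be a failed estimate, and reads from near-identical copies can be assigned to 1 of them, so nothing is said of the expression of these 2 genes. The values listed for MYB10.1 could likewise hold reads of either, which was not tested. The chalcone synthase identifiers had the same value in every column, as happens when copies share reads. They are treated below as 1 measurement, CHS, which leaves 8 distinct profiles. Column sums of FPKM ranged from 651850 to 882184, and scaling factors between columns, applied before differences were taken, from 0.922 to 1.06. Levels below are FPKM as deposited and folds are ratios of these. Differences are on the scale of log2(FPKM + 1) after scaling.

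All 8 profiles were higher on day 7 than on day 1 at both temperatures, and most were among the genes with the largest differences in the tissue. At 25 °C, 8 of 8 profiles were at least 2-fold higher on day 7, against 4.15% of all tested genes. At 35 °C the count was 7 of 8, against 8.17% of all genes, and CHI, with a difference of 0.99, lay just below 2-fold. The median difference of the 8 profiles was 3.10 at 25 °C and 4.41 at 35 °C, beside -0.02 and -0.04 over all genes. Each difference is that of 1 value from 1 value and has no test. In bulk tissue, more pigmented cells and more transcript per cell cannot be told apart.

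MYB10.1, the activator, was the least abundant profile on day 1. At 25 °C it was listed at 11.9, 16.6, 48.4, 55.2, 60.4 and 110 FPKM on days 1, 2, 3, 5, 6 and 7. At 35 °C the values were 6.02, 50.6, 110, 107, 125 and 157 FPKM. Each value at 25 °C was above that of the sampling before. At 35 °C most of the difference was in place by day 3, at 18.2-fold over day 1, and day 7 stood at 26.1-fold, against 9.27-fold at 25 °C. From day 2 onward every 35 °C value lay above the 25 °C value of its day, whereas on day 1 the 35 °C value was the lower.

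CHS, the entry enzyme, was listed at 90.1, 366, 277, 1465, 385 and 1438 FPKM over the 6 days at 25 °C. At 35 °C it was listed at 48.2, 285, 855, 1306, 1846 and 2141 FPKM. The 25 °C course went up and down, with low values on days 3 and 6 between high ones, while at 35 °C each value exceeded the last. By day 7 CHS stood 16.0-fold above day 1 at 25 °C and 44.4-fold at 35 °C.

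CHI, which closes the flavanone ring, had the smallest range. Its values at 25 °C were 26.6, 60.3, 42.0, 63.6, 28.4 and 60.0 FPKM, and at 35 °C they were 38.2, 34.9, 58.5, 60.4, 81.1 and 78.1 FPKM. The temperatures overlapped, and the highest value was only 2.39-fold above the lowest at 25 °C and 2.33-fold at 35 °C. CHI is the sum of 2 rows per table. The larger row ranged from 24.0 to 71.7 FPKM and the smaller from 0.945 to 18.1 FPKM. The smaller row was at its lowest on day 6 at 25 °C and its highest on day 7 at 35 °C.

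F3H, which forms dihydroflavonols, was listed at 58.4, 119, 92.6, 494, 103 and 334 FPKM at 25 °C. The 35 °C values were 32.7, 98.7, 256.4, 354, 363 and 436 FPKM. DFR, the first step after the dihydroflavonols, was listed at 70.2, 298, 200, 760, 211 and 719 FPKM at 25 °C and at 33.8, 201, 289, 425, 777 and 717 FPKM at 35 °C. Both enzymes followed the course of CHS, with the same low days 3 and 6 at 25 °C. On day 7 the DFR values of the temperatures were nearly equal, at a ratio of 0.998.

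ANS, which makes the coloured anthocyanidins, was the most abundant profile on every day at 25 °C. There it was listed at 563, 1137, 1867, 3806, 1524 and 3210 FPKM. At 35 °C the values were 385, 1167, 2344, 3404, 3675 and 4304 FPKM. Its low day at 25 °C was day 6, and day 3 was above day 2. Among all identifiers it ranked 178 by FPKM on day 1 at 25 °C and 14 on day 7 at either temperature.

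UFGT, the sugar-adding step, was listed at 154, 133, 310, 689, 528 and 1439 FPKM at 25 °C. At 35 °C it was listed at 38.5, 297, 696, 819, 1147 and 978 FPKM. Day 1 at 35 °C was the lowest of all 12 values and day 7 at 25 °C the highest. Against day 1 of its own temperature, UFGT was 4.47-fold higher on day 5 at 25 °C and 7.72-fold higher on day 2 at 35 °C. These folds start from unlike values, 154 FPKM at 25 °C and 38.5 FPKM at 35 °C. In level, day 2 at 35 °C, at 297 FPKM, lay below day 5 at 25 °C, at 689 FPKM.

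GST, the transport gene, had the widest range of the set. At 25 °C it was listed at 120, 337, 554, 1248, 930 and 2544 FPKM. Its values at 35 °C were 37.9, 538, 1994, 4137, 6620 and 4834 FPKM. Day 1 was the lowest value at both temperatures, and from day 2 onward each 35 °C value exceeded the 25 °C value of its day. On day 6 at 35 °C the level was 175-fold that of day 1, and GST ranked 5 by FPKM among all 26873 identifiers, from 3056 on day 1. At 25 °C its rank moved from 1072 on day 1 to 20 on day 7.

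**Figure D1:**
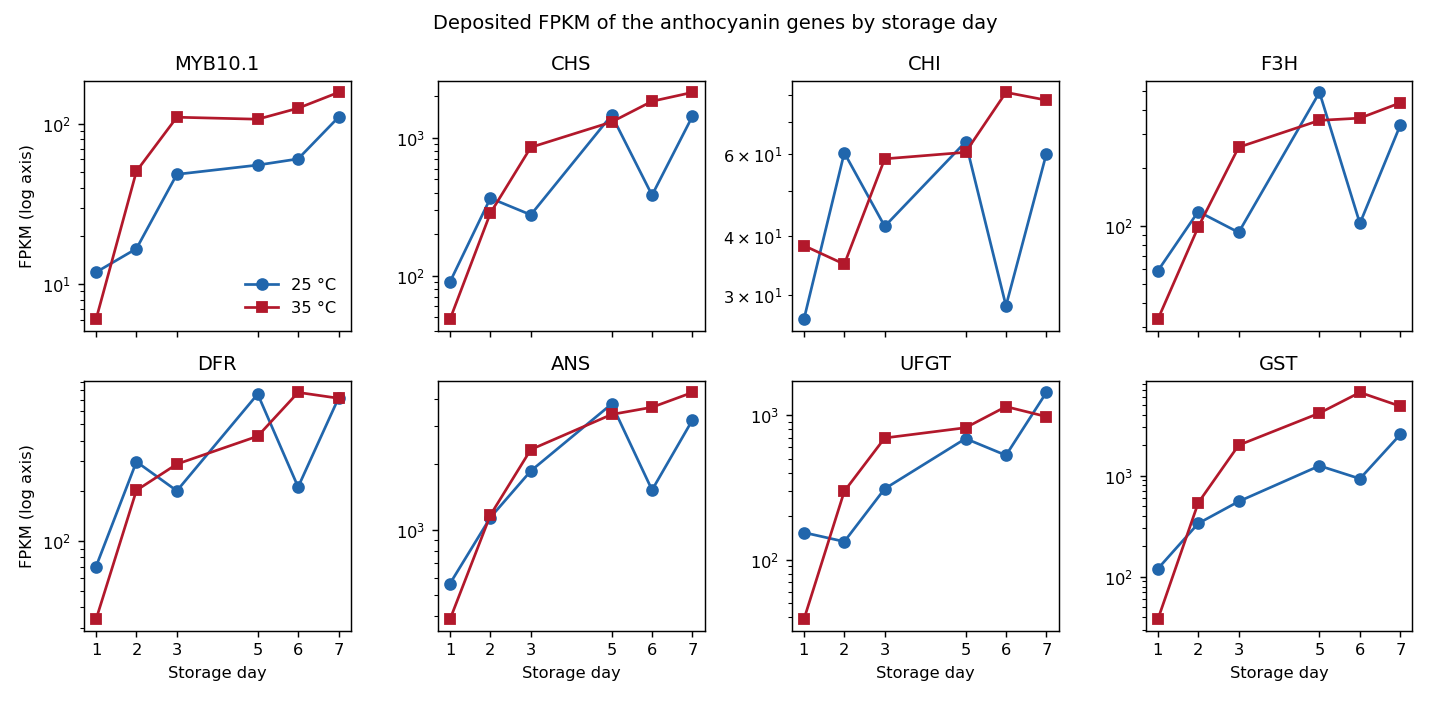
FPKM as deposited (log axis, a separate range in each panel) against storage day for the 8 distinct profiles, at 25 °C (circles) and 35 °C (squares), with 1 value per point and no error. CHS, F3H and DFR dip on days 3 and 6 at 25 °C, ANS and CHI on day 6 among others, while MYB10.1 runs from 11.9 to 110 FPKM at 25 °C without a dip.

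The balance between the genes differed between early and late days. FPKM is a measure per length, so levels of different genes can be set side by side. GST stood at 0.213 of the ANS level on day 1 at 25 °C and at 0.792 of it on day 7. The ratio at 35 °C was 0.0986 on day 1, 0.851 on day 3 and 1.80 on day 6, so that on days 5, 6 and 7 GST was the most abundant profile of the set. The ratio of DFR to ANS, by contrast, lay between 0.0880 and 0.262 in all 12 columns. For shares of all FPKM, CHS was counted once in the set but with both identifiers in the total, which makes the shares low. On day 7 at 35 °C the value left out was 2141 FPKM, beside 13646 FPKM for the sum. The set so summed made up 0.133% of all FPKM on day 1 and 1.35% on day 7 at 25 °C. At 35 °C it made up 0.0825% on day 1, 2.22% on day 6 and 1.84% on day 7.

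**Figure D2:**
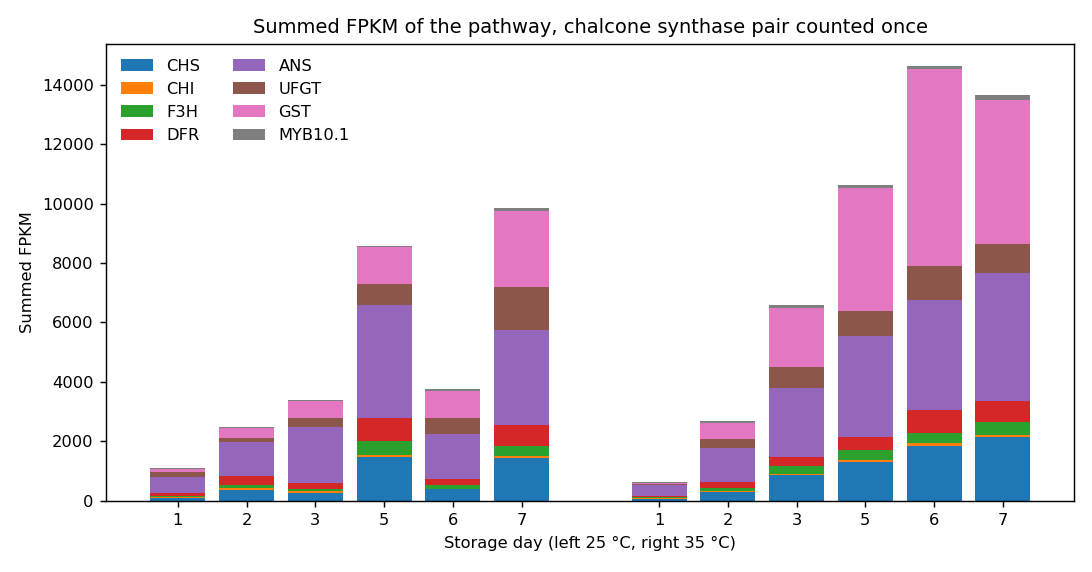
Stacked FPKM of the 8 distinct profiles for each storage day at 25 °C (left) and 35 °C (right), with the chalcone synthase pair counted once. The stack is highest on day 6 at 35 °C, at 14636 FPKM, of which GST makes 6620, and day 6 at 25 °C, at 3769 FPKM, lies below days 5 and 7.

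The size of the difference between day 7 and day 1 was set against that of all 15420 tested genes, ranked from the largest increase. At 35 °C, GST had rank 2, CHS rank 5, UFGT rank 10, MYB10.1 rank 12, DFR rank 16, F3H rank 31 and ANS rank 44. At 25 °C the ranks were 8 for GST, 11 for CHS, 33 for DFR, 37 for UFGT, 42 for MYB10.1, 83 for ANS and 84 for F3H. CHI stood apart, with rank 535 at 25 °C and 1281 at 35 °C. With a pseudocount of 0.1, which gives low genes larger differences, GST had rank 4 at 35 °C and 34 at 25 °C. CHS then had ranks 11 and 48.

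**Figure D3:**
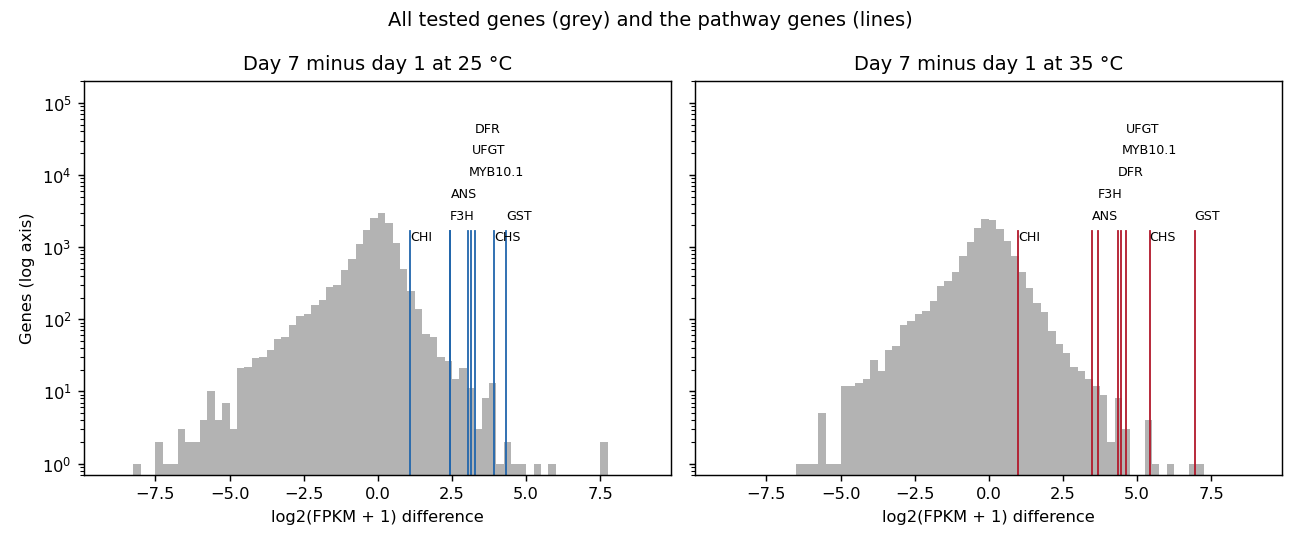
Histogram of the day 7 minus day 1 difference in log2(FPKM + 1) over all tested genes (grey, log axis for the number of genes), with lines at the 8 distinct profiles, at 25 °C (left) and 35 °C (right). All lines but that of CHI lie in the right tail, and GST is farthest out, at 4.33 and 6.94.

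For a test of storage, the mean of days 5, 6 and 7 was set against that of days 1, 2 and 3 in limma, with the spread between the days of a period as the error. That spread contains the increase within each period. At 35 °C the 8 differences lay between 0.77 for CHI and 3.90 ± 1.11 (SE) for GST, with a median of 2.16 beside -0.01 over all genes. None of the 8 passed at a Benjamini-Hochberg adjusted p under 0.05, and the limma adjusted p lay between 0.386 and 0.610. Over all genes 0.00649% were called, none of them higher. An unadjusted limma p under 0.05 was reached by 7 of the 8 profiles, and by 1294 of all 15420 genes in either direction. Without day 1, when the levels were lowest for all profiles but CHI, the 35 °C differences were smaller. They were then 2.34 for GST, 1.84 for CHS, 1.39 for DFR, 1.30 for F3H, 1.23 for ANS, 1.13 for UFGT, 0.81 for MYB10.1 and 0.71 for CHI. At 25 °C the differences lay between 0.22 for CHI and 2.34 ± 1.11 for GST, with a median of 1.64 beside -0.02. The limma adjusted p lay between 0.430 and 0.829, and 0% of all genes were called. An unadjusted p under 0.05 was reached by 3 of the 8, and by 1614 of all 15420 genes in either direction. Without day 1 they were 0.99 for DFR, from 1.58, and 0.86 for ANS, from 1.31, and the value for CHI ranged from -0.073 to 0.57 over the alternatives.

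A straight line on day, an alternative form of the same comparison, called 1 profile. GST rose at 35 °C by 1.04 ± 0.18 (SE) per day on the log2 scale, with a limma adjusted p of 0.0479, the second largest upward slope of all tested genes. At 35 °C 0.0519% of all genes were called higher by this slope. The call was lost without day 1, 2, 5, 6 or 7, with no filter on low values and with identical values counted once, where the limma adjusted p ranged from 0.0501 to 0.276. The GST slope itself was 0.64 without day 1, and between 1.02 and 1.31 in the other fits that lost the call. Without day 1 the slopes of MYB10.1 and UFGT were 0.26 and 0.33, from 0.57 and 0.65 with all days. The other 7 slopes at 35 °C lay between 0.20 for CHI and 0.80 ± 0.16 for CHS, with limma adjusted p from 0.0782 to 0.273. At 25 °C the 8 slopes lay between 0.06 for CHI and 0.61 ± 0.18 for GST. None of them was called, with limma adjusted p from 0.0958 to 0.705, where 0.428% of all genes were called higher.

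Temperature was compared next, to ask whether the pathway differed between 25 and 35 °C and when. On day 1 the pathway was lower at 35 °C, with 7 of 8 profiles below the 25 °C value and CHI above it. UFGT stood at 0.250 of its 25 °C level, GST at 0.316 and DFR at 0.482. These 3 were at least 2-fold lower, against 3.35% of all genes, and none was 2-fold higher, against 0.733%. With quantile normalization DFR, at -0.99, no longer reached 2-fold, and with a pseudocount of 0.1 MYB10.1, at -1.02, reached it. The median difference was -0.94, beside 0.00 over all genes.

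On day 2 the profiles parted. MYB10.1 was 3.04-fold higher at 35 °C, UFGT 2.23-fold and GST 1.60-fold, while CHI stood at 0.578, DFR at 0.674, CHS at 0.779 and F3H at 0.831 of the 25 °C level. MYB10.1 alone was at least 2-fold apart after scaling, against 9.46% of all genes that were higher. UFGT, at 0.96, lay just below, and passed this limit with FPKM as deposited and with quantile normalization.

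On day 3 all 8 profiles were higher at 35 °C, 5 of them at least 2-fold, against 6.90% of all genes. The ratios were 3.60 for GST, 3.09 for CHS, 2.77 for F3H, 2.27 for MYB10.1 and 2.25 for UFGT. On day 5 only GST was at least 2-fold higher, at 3.31-fold, against 5.95% of all genes. CHS, CHI, F3H, DFR and ANS were then lower at 35 °C, DFR at 0.559 and the others at 0.716 to 0.950 of the 25 °C level. For CHS, CHI and ANS that direction turned with quantile normalization.

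On day 6 the whole set was higher at 35 °C, 7 of 8 profiles at least 2-fold, against 5.50% of all genes. GST was 7.12-fold higher, CHS 4.80-fold, DFR 3.69-fold, F3H 3.52-fold, CHI 2.86-fold, ANS 2.41-fold and UFGT 2.17-fold. MYB10.1, at 0.97 on the log2 scale, lay just below 2-fold, and passed it with FPKM as deposited (1.04) and with quantile normalization (1.13), where ANS lay just below (0.99). On day 7 none was 2-fold apart in either direction, where 6.06% of all genes were higher and 4.75% lower. The day 3 and day 6 ratios of CHS and F3H, and the day 6 ratio of DFR, fell on days when these genes were low at 25 °C. DFR was low at 25 °C on day 3 too, but its ratio was then 1.45. GST, MYB10.1 and UFGT, with day 3 ratios of 3.60, 2.27 and 2.25, were above their day 2 values on day 3 at 25 °C. The part of the low days in the ratios was not tested. Day 6 at 25 °C also had the second lowest FPKM sum, at 652258, after 651850 for day 5 at 35 °C. The part of the column sum in these values was not tested beyond the scaling alternatives.

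**Figure D4:**
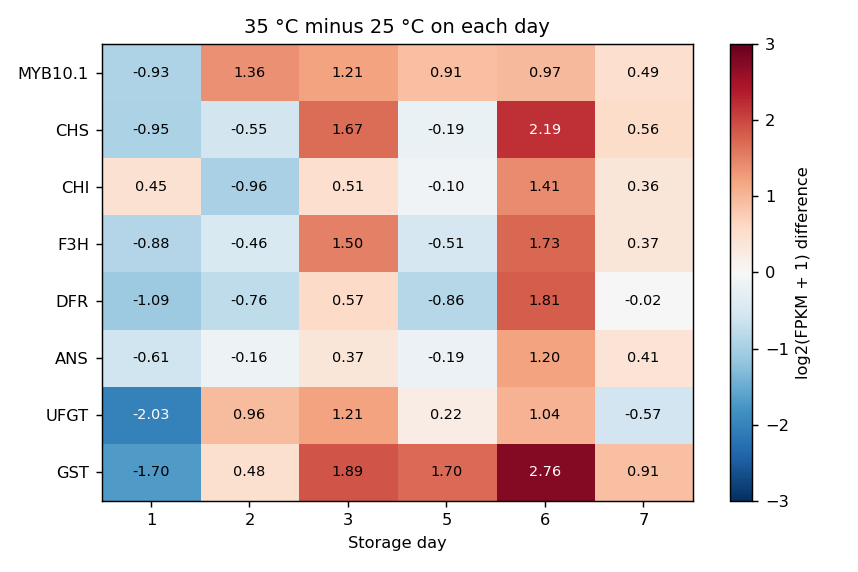
Difference in log2(FPKM + 1) between 35 and 25 °C on each storage day (columns) for the 8 distinct profiles (rows), each cell 1 value against 1 value. Day 1 is negative for all profiles but CHI, days 3 and 6 are positive for all 8, and the largest cell is GST on day 6, at 2.76.

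Across the 6 days, no profile passed the test of the temperature effect. That test was limma with day and temperature as terms and the spread of the difference between days as the error. The mean level of GST was 956 FPKM at 25 °C against 3027 FPKM at 35 °C. The mean of its daily differences in log2(FPKM + 1) was 1.01 ± 0.50 (SE over 6 days, limma adjusted p = 0.198). For MYB10.1 the mean levels were 50.4 and 92.5 FPKM, and the mean daily difference was 0.67 ± 0.28 (limma adjusted p = 0.134). Both genes were higher at 35 °C on 5 of 6 days. For the other 6 profiles the difference lay between -0.06 for DFR and 0.45 for CHS, with limma adjusted p from 0.472 to 0.927. Over all genes 6.21% were called higher and 5.78% lower. Without day 1, when the direction was opposite, MYB10.1 was called higher at 0.99 (limma adjusted p = 0.00847) and GST at 1.55 (limma adjusted p = 0.0202). The difference was 0.66 for GST without day 6, and 0.35 for GST and 0.46 for MYB10.1 without days 3 and 6. In the fit without day 1, 10.7% of all genes were called higher, and 2 of 8 profiles is to be read against that share. The range of the adjusted p over all alternatives was 0.00847 to 0.531 for MYB10.1 and 0.0202 to 0.750 for GST. The temperatures lie in separate tables, and no label or header says whether these were normalised together.

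The late minus early difference was larger at 35 than at 25 °C for all 8 profiles, by 0.19 for UFGT to 1.56 ± 1.57 (SE) for GST on the log2 scale. None of these differences passed, with limma adjusted p of 1.00 for each, and 0% of all genes were called. With day as a term the SE for GST was 0.91 and the limma adjusted p of the 8 lay between 0.953 and 0.988. An unadjusted p under 0.05 was reached by none of the 8 in either fit. Of all 15420 genes, 471 reached it in the first fit and 673 with day as a term. The direction turned for MYB10.1 and UFGT without day 1, and for F3H, DFR and UFGT without day 6.

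The 8 profiles shared a course only in part. Across the 12 columns, levels of CHS, F3H, DFR and ANS correlated with each other at a Pearson r of 0.951 to 0.981. MYB10.1, UFGT and GST did so at 0.953 to 0.969. These columns share the upward trend of storage, so that high values are of little information. Steps between neighbouring sampling days, 5 at each temperature, remove only an even trend, and the step from day 3 to day 5 is longer than the others. At 35 °C the median step of the 8 profiles was 2.47 from day 1 to day 2 and 0.07 from day 6 to day 7. Part of the shared rise therefore remains in the steps. Over these 10 steps CHS, F3H, DFR and ANS still moved together, at r from 0.859 to 0.964. MYB10.1, UFGT and GST did so at 0.774 to 0.843. For each of these genes the largest of the 10 steps was that from day 1 to day 2 at 35 °C. It was 2.81 for MYB10.1, 2.85 for UFGT and 3.73 for GST. Such a step weighs heavily on r over 10 steps, and r without it was not calculated. GST stood between these groups, since it correlated as closely with ANS, CHS and DFR, at 0.80, 0.78 and 0.77. MYB10.1 correlated with CHS, F3H, DFR and ANS at 0.282 to 0.549, and with CHI at -0.11. CHI itself correlated with CHS, F3H, DFR and ANS at 0.656 to 0.793, with GST at 0.374 and with UFGT at 0.120. Neighbouring steps share a column, and the values are a description with no test.

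**Figure D5:**
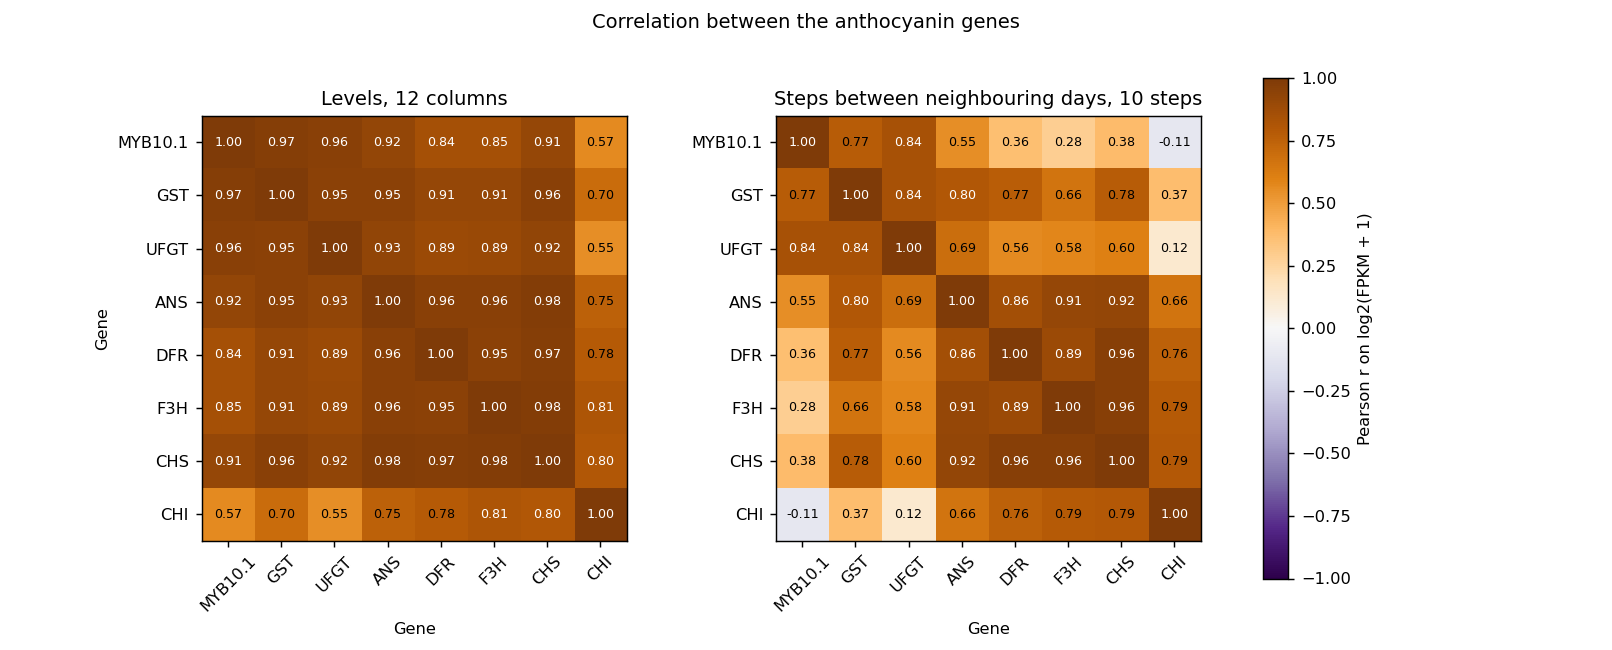
Pearson r between the 8 distinct profiles on log2(FPKM + 1), over the levels in 12 columns (left) and over 10 steps between neighbouring days (right). In the right panel ANS, DFR, F3H and CHS form the tightest block, GST has high values with both them and MYB10.1, and MYB10.1 has low values with DFR, F3H and CHS and -0.11 with CHI.

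The first step, from day 1 to day 2, held 2-fold higher values in 6 of 8 profiles at 25 °C and in 7 of 8 at 35 °C, against 4.52% and 10.4% of all genes. With quantile normalization F3H, at 0.97, and ANS, at 0.92, lay just below 2-fold at 25 °C. The first step was 3.73 for GST, 2.85 for UFGT and 2.81 for MYB10.1 at 35 °C, where the same genes differed by 1.55, -0.14 and 0.52 at 25 °C. DFR and CHS had steps of like size at both temperatures, 2.14 and 2.08 at 25 °C and 2.47 for each at 35 °C. From day 2 to day 3, 2 of 8 profiles were 2-fold higher at 25 °C, MYB10.1 and UFGT, against 1.44% of all genes. At 35 °C it was 6 of 8, against 2.41%. From day 3 to day 5 the order was the reverse, with 6 of 8 at 25 °C against 2.08% of all genes, and GST alone at 35 °C against 2.28%. After day 5 no profile was 2-fold higher over a step at 35 °C, where 1.58% of all genes were from day 5 to day 6 and 1.61% from day 6 to day 7.

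The drop at 25 °C from day 5 to day 6 was not of one size across the set. From day 5 to day 6, F3H went from 494 to 103 FPKM, a step of -2.23, CHS by -1.91, DFR by -1.83, ANS by -1.30 and CHI by -1.12. Such 2-fold lower values were found in 5 of 8 profiles and in 5.24% of all genes. With quantile normalization CHI, at -0.97, and ANS, at -0.73, no longer reached 2-fold. UFGT and GST differed by -0.36 and -0.40 and MYB10.1 by 0.15 over the same step, and with quantile normalization UFGT and GST were slightly higher, by 0.01 and 0.11. From day 6 to day 7 all 8 profiles were higher again, 6 of them at least 2-fold, against 1.56% of all genes. The lowest of all 40 steps at 35 °C was that of GST from day 6 to day 7, at -0.46.

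Genes outside the set with the closest course were sought among the 10194 other identifiers whose mean was 5 FPKM or more. The mean standardised course of the 8 enzyme and transport identifiers, to which the CHS pair adds 2 identical courses, was most like that of Prupe.6G005900, at r = 0.984 (Spearman's rho 0.951, 12 columns). That gene ranged from 6.71 FPKM on day 1 to 113 FPKM on day 7 at 35 °C, and it dipped from 74.3 to 33.3 FPKM from day 5 to day 6 at 25 °C. Next came Prupe.2G326300 at 0.950 and Prupe.5G226500 at 0.943, and 20 of the 10194 were above 0.9. With the pair counted once the same 3 genes came first, at 0.984, 0.950 and 0.942. Closest to MYB10.1 were Prupe.2G175000 at 0.974, Prupe.7G024500 at 0.973 and Prupe.6G364000 at 0.971, with 39 above 0.9. Prupe.2G175000 was listed at 2.77 FPKM on day 1 and 38.6 FPKM on day 7 at 25 °C, and at 1.16 and 83.7 FPKM at 35 °C. The files do not pair these identifiers with names. Each r here is over levels, which share the upward trend of storage, and likeness over steps was not calculated.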

How the data were processed

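The authors deposited FPKM values in 2 tables, 1 per temperature, each with 29300 rows and 6 columns, per the file headers. The columns carry no replicate number. Genome build, annotation and the way the 2 libraries of a group were joined are not stated in the labels or headers. The submitters' processing notes name Cufflinks 2.1.1, TopHat2 2.0.10, Bowtie2 2.1.0, SAMtools 0.1.18 and FastQC 0.10.1, but not what each was used for. Read depth is unknown, so no counting interval can be given.

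Rows of 1 identifier were summed. Columns were scaled to each other by the median of ratios, taken from the 12194 identifiers that exceed 1 FPKM in every column, and identifiers with at least 1 FPKM in at least 2 columns were kept. Tests used limma 3.58.1 (R 4.3.3), with eBayes and its mean trend, on log2(FPKM + 1), fitted and Benjamini-Hochberg adjusted over all 15420 genes. They were also run on simulated data with independent noise, in which the storage and slope cases held no course over days beyond the added change. That simulation cannot show how these tests behave under the increase within periods, and nothing here rests on it. The scale understates changes of low genes. P-values measure spread between days, not between fruit. Each value stands for 2 libraries that no label ties to separate fruit.

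The members and tests were chosen with earlier results of these data known. The genes named are all members, the identifier between the MYB10 genes and the 3 most similar genes per profile. Lists of other pathway genes and of tissue markers, written as product descriptions, matched no identifier, because 0 of 26873 identifiers matched the RefSeq gene table. They were not tested, and the flesh label was not checked against markers. No sequence is shown for the same reason.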

Additional observations from a re-analysis of the deposited data

Results flagged for a closer look

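Singled out were steps between neighbouring days that ran in opposite directions at the temperatures and lay 2 or more log2 units apart. Each step compares 1 value with 1 value, and the differences between the temperatures were not tested. UFGT was 0.14 lower on day 2 than on day 1 at 25 °C and 2.85 higher at 35 °C, a difference of 2.99. CHS from day 2 to day 3 was 0.60 lower at 25 °C and 1.62 higher at 35 °C, a difference of 2.22. From day 5 to day 6, CHS differed between the temperatures by 2.38, F3H by 2.24 and DFR by 2.67, each lower at 25 °C. F3H was higher at 35 °C by only 0.01 over that step. Groups have 1 value each, so no value could be screened as an outlier within a group.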

How the results depend on the processing

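No paired analysis was possible because each temperature and day has a single column joining 2 libraries, and no replicate could be left out either. The temperature test itself compares the temperatures within each day. The alternative without days 3 and 6, and all alternatives for the slopes, were added after the data were seen. Of 688 values of the 8 profiles under the alternatives, 656 kept direction and side of the threshold, 20 turned direction, 7 lost and 5 gained a call. The causes were not tested, and what depth limits is unknown. Counts of genes called are over all genes. For the temperature effect, 1849 in the main setting, the unfiltered table gave 397, a floor of 5 FPKM on the mean gave 1216, and a fit with temperature and period as 4 groups gave 1214. Leaving out a day gave 3006 for day 1, 211 for day 2, 0 for day 3 or day 5, 1 for day 6 and 129 for day 7, and leaving out days 3 and 6 gave 0. At 25 °C, late minus early gave 0 in the main setting, 4 unfiltered, 1 under the 5 FPKM floor, 2 on deposited values, 286 by slope, 1 without day 1, 126 without day 3, 8 without day 5 and 1 without days 3 and 6. At 35 °C it gave 1 in the main setting, 2 unfiltered, 3 under the 5 FPKM floor, 2 with pseudocount 0.1, 39 by slope, 72 without day 3 and 0 without day 1, 5, 6 or 7. It gave 4 each as deposited, with quantile normalization, with the largest row and with identical values counted once. The difference of these changes gave 1 with no filter and 0 otherwise. Members 2-fold higher at 35 °C on day 2 were 1, but 2 as deposited and with quantile normalization, and on day 5 they were 1, but 2 with quantile normalization. On day 6 they were 7, but 8 as deposited.

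Turned directions, none of them called, were as follows on the log2 scale. For the temperature effect, DFR was 0.20 with quantile normalization, 0.15 without day 1, 0.081 without day 2 and 0.10 without day 5. UFGT was -0.025 without day 2, -0.076 without day 3, -0.042 without day 6 and -0.36 without days 3 and 6. ANS was -0.035 without day 6 and -0.14 without days 3 and 6. Without days 3 and 6, CHS was -0.28, CHI -0.064 and F3H -0.37. Late minus early at 25 °C was -0.073 for CHI without day 1, and its slope was -0.046. The difference of the storage changes was -0.85 for UFGT and -0.50 for MYB10.1 without day 1. Without day 6 it was -0.017 for DFR, -0.22 for UFGT and -0.13 for F3H. Calls gained were MYB10.1 and GST without day 1 for the temperature effect and GST by slope at 35 °C, all given above. Also gained were the slopes of UFGT at 25 °C without day 1 (0.57, limma adjusted p = 0.0421) and of MYB10.1 at 35 °C without day 3 (0.63, limma adjusted p = 0.0489). Single differences between columns turned direction in 13 of 576 cases under other scalings, pseudocounts or row choices. They crossed the 2-fold limit, in either direction, in 18 of the 576.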
